A study of Rattus norvegicus with 63 samples.

Results

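Potassium channel genes other than the Kv3 family were followed across 6 brain regions of rats with and without access to self-administered cocaine. The members were all genes whose symbol begins with Kcn, apart from the Kcnc genes (Kv3) and Kcnj10, and each was read only from probe sets with a single gene symbol. They were 45 genes with 68 probe sets, out of 720 genes with 1137 such probe sets on the array. They were picked by symbol, with no cut on a measured value, but earlier results of these data were known when the set was chosen.

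The rats with access pressed a lever for intravenous cocaine at 0.25 mg per injection on a continuous schedule. The series' design text gives 8 rats per group. Sample titles name the group without access differently: ctrl in nucleus accumbens, cocaine naive in ventral tegmental area and medial prefrontal cortex, and no access elsewhere. No access rats had 0 h per day, short access rats 1 h per day and long access rats 6 h per day. RNA from whole dissected tissue was hybridised to 63 Affymetrix Rat Neurobiology U34 arrays. The lateral hypothalamus, the region in the series title, had 4 arrays per access group, as had the nucleus accumbens and the amygdala. There were 3 per group from medial prefrontal cortex, septum and ventral tegmental area. Strain, age and sex are not given in the labels used here. The labels do not say whether an array holds 1 rat or a pool, and they tie no arrays of different regions to the same rats, so p-values measure only the spread between arrays.

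Potassium channels let potassium leave or enter a cell and so set its resting potential, its firing threshold and the length of each spike. Voltage-gated members (Kcna, Kcnb, Kcnd, Kcnh, Kcnq) open on depolarisation, calcium-activated and sodium-activated members (Kcnma, Kcnn, Kcnt) follow ion entry, and inward rectifiers (Kcnj) and tandem-pore leak channels (Kcnk) hold the membrane near rest. Most subunits are shared by many kinds of neuron in different amounts, and a few, such as Kcnj16, are also known from glia.

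Signals are given as log2 intensity after scaling every array to a trimmed mean of 500, with values under 32 set to that floor (5 on the log2 scale). A probe set was tested in a region where its mean signal was at least 100 there. By that rule 41 probe sets of 30 genes were tested in at least 1 region, 18 of them in all 6, and 27 probe sets were tested in none. The untested genes were Kcna2, Kcna3, Kcnb2, Kcns1, Kcnh5, Kcnh8, Kcne1, Kcnq1, Kcnn3, Kcnj13, Kcnj2, Kcnj3, Kcnj6, Kcnj9 and Kcnk3. Kcnj3, Kcnj6 and Kcnj9, subunits of the G-protein-gated rectifiers that transmitter receptors open, were thus too dim for a test. Kcnj6, for example, was at the floor on 61 arrays. Where a gene had several tested probe sets they are called a, b and c in alphabetical order of their identifiers. Of the 68 probe sets, 26 have a name ending that marks possible cross-hybridisation with related transcripts. No level of one probe set is set against that of another, because brightness also depends on the probes.

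Marker transcripts were checked for those regions that had a list. Summed signal of Th, Slc6a3, Slc18a2 and Ddc was 19746 to 23165 on ventral tegmental area arrays and at most 1592 elsewhere. Summed Drd1, Drd2, Adora2a and Penk was 7379 to 10412 on nucleus accumbens arrays and at most 3717 elsewhere. Summed Oxt, Avp and Gal was 16004 to 22622 on lateral hypothalamus arrays. In amygdala it was 411 to 4261 without access, 673 to 10497 with short and 4201 to 5626 with long access. Elsewhere it was at most 475. The part of this peptide signal in the amygdala results was not tested. Hcrt and Pmch, which define the lateral part of the hypothalamus, were not analysed here. The ventral tegmental area arrays also held 3001 to 3795 of summed Cck and Camk2a, against 6085 to 7450 in medial prefrontal cortex. No septum or amygdala marker was in the lists, so these 2 labels were not checked. Between 17.3% and 25.1% of probe sets per array were at the floor. The typical distance of an array from its group mean was largest in medial prefrontal cortex (0.33 to 0.66 on the log2 scale).

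Region set most of the variation of these genes. The median member had 64.6% of its sum of squares from region, 8.43% from access within region and 29.6% from arrays within a group. Over all 858 probe sets tested these were 57.8%, 9.31% and 30.6%. The shares are not corrected for the number of groups, so spread between arrays alone gives access some share. The access share is therefore no measure of a cocaine effect. Kcnh3 b, Kcnh1 and Kcnj4 b had the largest shares from region, at 90.8%, 90.7% and 90.1%. Kcnj1, a kidney-type rectifier, had the smallest at 7.51%, and the small-conductance calcium-activated channel Kcnn1 followed at 12.1%.

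A region was compared with the mean of the other 5 in 1 limma fit of all arrays, and a call needed an adjusted p under 0.05 and at least 2-fold. Over 6 regions there were 40 calls, on 21 probe sets of 18 genes. Nucleus accumbens had 12 of the 41 member probe sets called, 11 of them higher, where 14.8% of all probe sets were called (9.79% higher and 5.01% lower). The 11 include Kcna4 a, which passed the signal filter only in nucleus accumbens, so its call adds no separate support to these counts. The median difference of the 41 members was 0.32 on the log2 scale, against -0.01 over all probe sets. Medial prefrontal cortex had 9 called, 6 of them higher, beside 17.9% of all probe sets (6.99% higher and 11% lower). Ventral tegmental area also had 9, of which 7 were lower, beside 20.3% (8.04% higher and 12.2% lower). Lateral hypothalamus had 5, of which 1 was higher, beside 10.6% (3.15% higher and 7.46% lower). Amygdala had 4, of which 3 were higher, beside 6.53% (3.73% higher and 2.8% lower), and septum had 1, which was lower, beside 8.51% (4.9% higher and 3.61% lower). As shares of the members these were 29.3% in nucleus accumbens, 22% in medial prefrontal cortex and in ventral tegmental area, 12.2% in lateral hypothalamus, 9.76% in amygdala and 2.44% in septum. To order the regions, all 15 pairs were also tested, at an adjusted p under 0.05 with no fold minimum, and 385 of 615 member tests passed, or 62.6% beside 58.3% over all probe sets. Regions next to each other in an order are said to differ by this test. In bulk tissue, fewer cells of a type and less RNA per cell cannot be told apart.

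**Figure D1:**
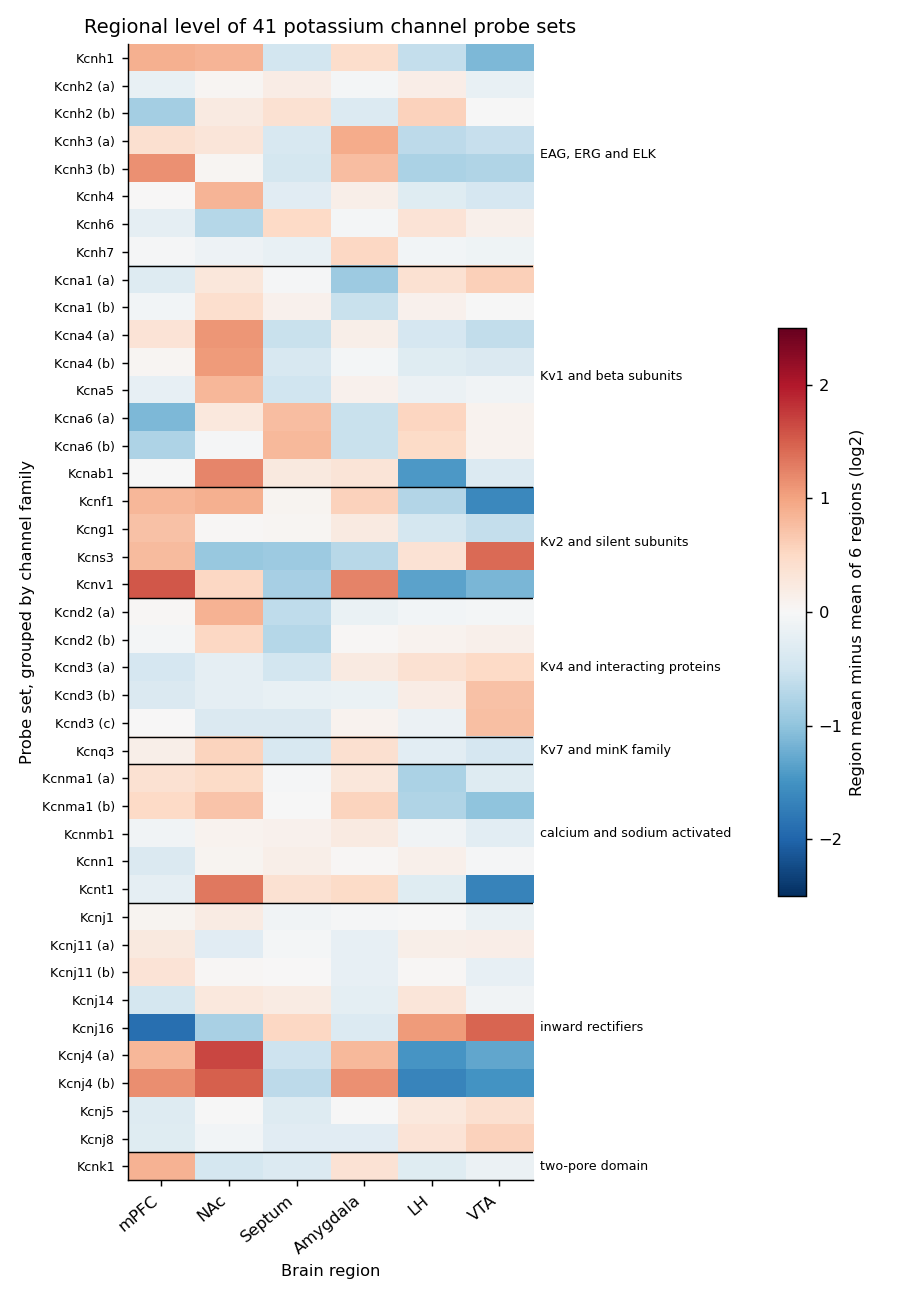
Mean log2 signal of each tested member probe set in the 6 regions, drawn as its difference from the mean of the probe set over the 6 regions. Kcnj16 and Kcns3 stand highest in ventral tegmental area, while Kcnj4, Kcnt1 and Kcnab1 stand highest in nucleus accumbens. Letters a, b and c mark several probe sets of a gene, mPFC is medial prefrontal cortex, NAc nucleus accumbens, LH lateral hypothalamus and VTA ventral tegmental area.

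Among inward rectifiers, Kcnj16 and Kcnj4 had the widest measured ranges over regions, both lower bounds since some arrays were at the floor, and their highest and lowest regions were nearly opposite. Kcnj16 encodes a rectifier subunit that pairs with Kcnj10, a pair well known from glia. Kcnj4 encodes a strong rectifier found mainly in forebrain neurons. Their promoter windows, from 250 bases before to 50 bases after the start of the gene (RefSeq, build GRCr8), are printed here because these genes carry the regional contrast and differ in base composition. Both read 5′ to 3′ on the strand of the gene, and capitals mark CG pairs. Kcnj4 lies at chr7:112954498-112954797 on the minus strand and Kcnj16 at chr10:96517074-96517373 on the plus strand.
Kcnj4: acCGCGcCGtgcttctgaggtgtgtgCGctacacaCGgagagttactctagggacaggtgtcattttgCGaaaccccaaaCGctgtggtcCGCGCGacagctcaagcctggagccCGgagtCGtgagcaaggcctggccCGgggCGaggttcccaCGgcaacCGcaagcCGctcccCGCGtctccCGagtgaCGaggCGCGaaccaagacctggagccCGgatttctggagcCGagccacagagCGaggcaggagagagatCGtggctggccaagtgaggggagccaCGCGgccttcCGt
Kcnj16: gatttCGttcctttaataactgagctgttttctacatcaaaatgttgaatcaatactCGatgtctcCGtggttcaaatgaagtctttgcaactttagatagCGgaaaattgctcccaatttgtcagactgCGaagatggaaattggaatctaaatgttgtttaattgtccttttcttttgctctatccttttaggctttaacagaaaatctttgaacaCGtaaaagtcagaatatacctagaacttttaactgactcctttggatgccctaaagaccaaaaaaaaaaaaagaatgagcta
The Kcnj4 window is 65.7% GC with 30 CG pairs, a number that 10.3% of 33469 RefSeq windows of this length reach or pass. The Kcnj16 window is 34.0% GC with 6 CG pairs, and 48.6% of all windows hold that many or fewer. The median window holds 51.7% GC and 7 CG pairs, and the 35 windows found for 32 of the 45 member genes have a median GC of 61.7%. Searched on both strands, GGGCGG (a GC box) was in 51.4% of member windows and 33.1% of all windows, CCAAT in 25.7% and 37.5%, and TATAAA in 5.71% and 14.2%. TGACGTCA (a cAMP response element) was in 0 member windows and 1.83% of all. Kcnj4 held none of these letters, and Kcnj16 held CCAAT at 2 places. Such matches describe letters only.

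Kcnj16 was brightest in ventral tegmental area, with a lowest, median and highest array of 7.93, 8.53 and 8.88. Lateral hypothalamus arrays ran 7.69, 8.11 and 8.58, and septum arrays 7.26, 7.47 and 8.28. Amygdala gave 5.91, 6.70 and 7.91, nucleus accumbens 5.70, 6.25 and 6.82, and medial prefrontal cortex 5.00, 5.05 and 5.50, with 4 of 9 arrays at the floor. Every array of the ventral tegmental area and lateral hypothalamus lay above every array of nucleus accumbens and prefrontal cortex. The means fell in the order ventral tegmental area, lateral hypothalamus, septum, amygdala, nucleus accumbens and prefrontal cortex, and each neighbour differed from the next. From the highest mean to the lowest was 10.2-fold, a lower bound since arrays at the floor entered at 32. Against the other 5 regions Kcnj16 was higher by 1.75 in ventral tegmental area (SE 0.14, adjusted p = 1.41e-16) and by 1.28 in lateral hypothalamus (SE 0.12, adjusted p = 2.51e-13). It was -2.27 in medial prefrontal cortex (SE 0.14, adjusted p = 8.76e-21).

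Glial markers followed this order in part. Summed signal of the astrocyte genes Slc1a2, Slc1a3, Glul and S100b was 30394 to 33938 in ventral tegmental area, where Kcnj16 was highest, and 19619 to 24899 in prefrontal cortex, where Kcnj16 was lowest. Summed signal of 5 oligodendrocyte genes was 37196 to 48055 in the first and 3984 to 8307 in the second. Against the order, the oligodendrocyte sum was 15419 to 24745 in nucleus accumbens and 9802 to 14624 in amygdala, where Kcnj16 was the higher of both. Their part in the Kcnj16 difference was not tested.

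Kcnj4 was brightest in nucleus accumbens on both probe sets. On Kcnj4 b the lowest, median and highest arrays were 8.59, 8.93 and 9.25 in nucleus accumbens, 8.34, 8.59 and 8.79 in amygdala and 8.46, 8.57 and 8.78 in prefrontal cortex. They were 5.61, 6.98 and 7.31 in septum, 5.04, 6.16 and 6.64 in ventral tegmental area and 5.00, 5.98 and 6.89 in lateral hypothalamus. All arrays of nucleus accumbens, amygdala and prefrontal cortex lay above all arrays of the other 3 regions. The top 3 regions did not differ from their neighbours in the order, nor did ventral tegmental area and lateral hypothalamus, while septum differed from both sides. Kcnj4 a went from 8.41 ± 0.31 in nucleus accumbens (SD, n = 12) to 5.27 ± 0.48 in lateral hypothalamus (SD, n = 12), where 7 arrays were at the floor. Over the 6 regional means the probe sets of Kcnj4 had r = 0.99, a description over 6 points that share their arrays. In lateral hypothalamus Kcnj4 b was -1.98 (SE 0.13, adjusted p = 7.19e-19) and Kcnj4 a was -1.78 (SE 0.15, adjusted p = 6.42e-15) against the other 5 regions. In nucleus accumbens Kcnj4 a was higher by 1.99 (SE 0.15, adjusted p = 8.87e-17).

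The other rectifiers varied less. Kcnj11 encodes the pore of the ATP-sensitive channel, and its regional means lay between 9.11 and 9.64 on Kcnj11 a. Kcnj8, the ATP-sensitive pore known from vessel walls, was highest in ventral tegmental area at 6.82 ± 0.33 (SD, n = 9), the only region where it passed the signal filter. Kcnj14, a strong rectifier, had regional means from 5.95 in prefrontal cortex to 6.68 in lateral hypothalamus. Kcnj5, a G-protein-gated subunit, and Kcnj1 had no neighbouring regions that differed.

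**Figure D2:**
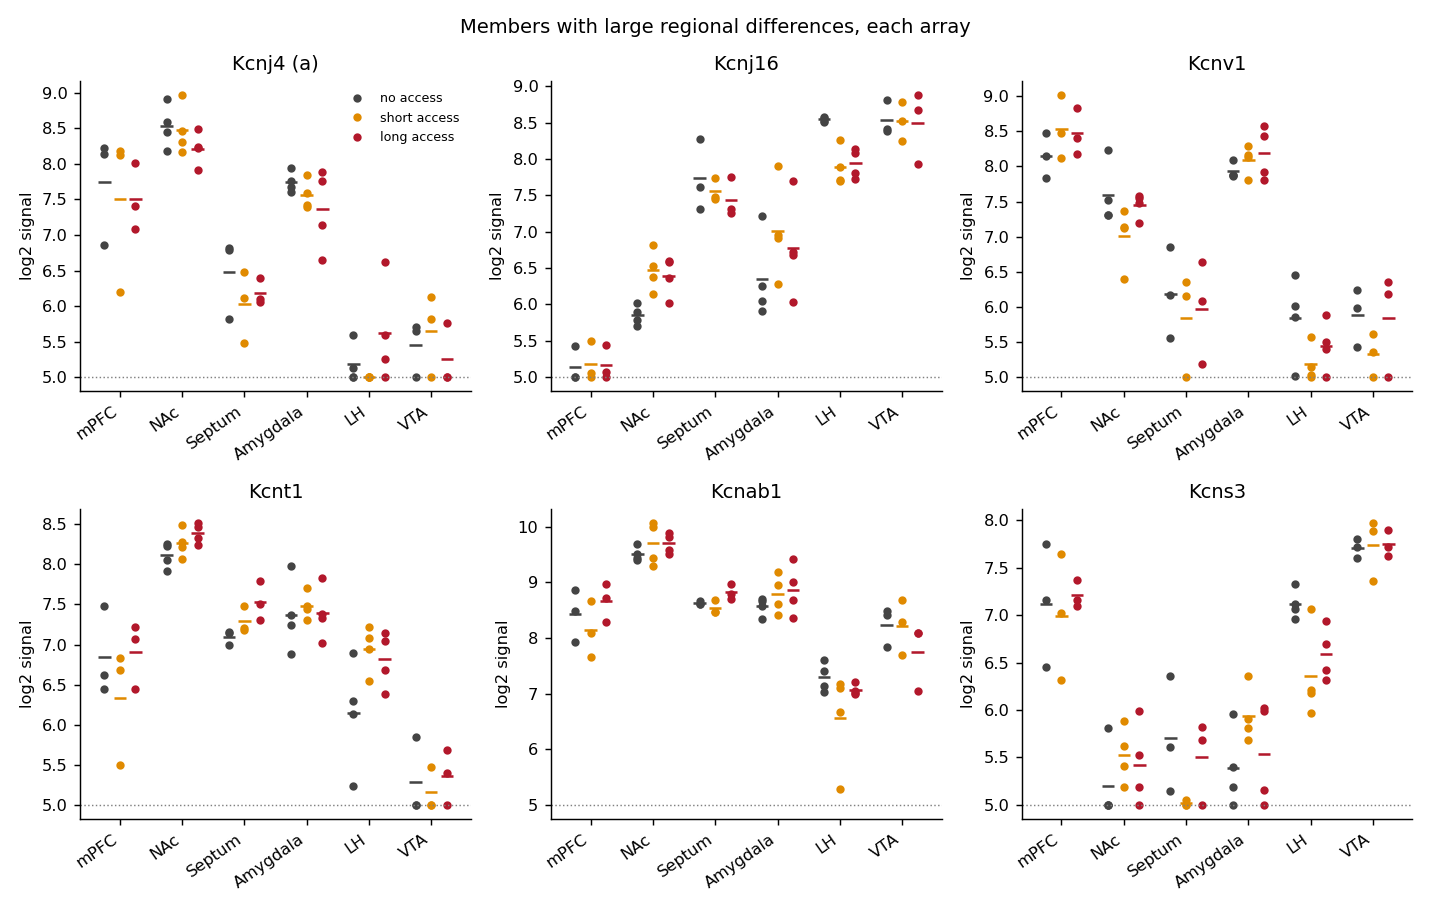
Log2 signal on each array by region for members with wide regional ranges, 1 panel each with its own y range. Points are arrays coloured by access group, and short lines are group means. The dotted line is the floor at 5. Kcnj16 is highest in ventral tegmental area and lowest in prefrontal cortex, where 4 of 9 arrays are at the floor, while Kcnj4 a is highest in nucleus accumbens and near the floor in lateral hypothalamus.

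Silent subunits do not form channels alone but join Kcnb subunits and alter their gating. Each of the 4 tested had its own order of regions. Kcns3 arrays ran from 7.36 through 7.72 to 7.97 in ventral tegmental area, from 6.31 through 7.16 to 7.75 in prefrontal cortex and from 5.97 through 6.82 to 7.32 in lateral hypothalamus. Its highest array in nucleus accumbens was 5.99, in amygdala 6.35 and in septum 6.36. Ventral tegmental area was thus apart from those 3 regions on every array. Kcns3 was higher by 1.69 in ventral tegmental area (SE 0.14, adjusted p = 3.75e-15), and it was -1.13 in nucleus accumbens (SE 0.13, adjusted p = 5.71e-11) and -1.10 in septum (SE 0.14, adjusted p = 5.60e-09).

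Kcnv1 is a silent subunit known mainly from cortex and hippocampus. Its arrays spanned 7.83 to 9.02 in prefrontal cortex, 7.81 to 8.58 in amygdala and 6.40 to 8.24 in nucleus accumbens. None of the lateral hypothalamus, septum or ventral tegmental area arrays passed 6.85. It shared with Kcns3 a high level in prefrontal cortex and a low one in septum, and differed from it in ventral tegmental area and amygdala. Kcnv1 was higher by 1.87 in prefrontal cortex (SE 0.16, adjusted p = 4.20e-15) and by 1.49 in amygdala (SE 0.14, adjusted p = 3.28e-13). Kcnf1 was lowest in ventral tegmental area, at 5.00, 5.70 and 7.04 for its lowest, median and highest array against 7.98, 8.13 and 8.66 in nucleus accumbens, with no overlap between these regions. It was -1.93 in ventral tegmental area (SE 0.15, adjusted p = 4.11e-16). Kcng1 was highest in prefrontal cortex at 6.96 ± 0.38 (SD, n = 9), the only region where it passed the signal filter.

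Kcnt1, a channel opened by sodium that enters during firing, was near the floor in ventral tegmental area. There 5 of 9 arrays were at the floor and the highest was 5.84, whereas nucleus accumbens arrays ran 7.92, 8.25 and 8.52 and septum arrays 6.99, 7.21 and 7.79. Kcnt1 was -1.996 in ventral tegmental area (SE 0.14, adjusted p = 7.07e-19) and higher by 1.59 in nucleus accumbens (SE 0.12, adjusted p = 7.18e-17). Kcnma1, the pore of the large-conductance calcium-activated channel, was also lowest in ventral tegmental area on Kcnma1 b, while Kcnma1 a was lowest in lateral hypothalamus at 6.33 ± 0.56 (SD, n = 12). Its accessory subunit Kcnmb1 and the channel Kcnn1 had no neighbouring regions that differed.

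Among Kv1 genes, which limit spike initiation and transmitter release, the A-type channel Kcna4 was higher in nucleus accumbens than in every other region on both probe sets. Kcna4 a passed the signal filter only in nucleus accumbens and so entered the fit through that region. Its rank there is no separate support. Kcna4 b was 8.36 ± 0.26 there (SD, n = 12) and 6.88 to 7.34 in the other 5 regional means. Kcnab1, the beta subunit that gives Kv1 channels fast inactivation, ran 9.29, 9.55 and 10.07 in nucleus accumbens and 5.29, 7.08 and 7.61 in lateral hypothalamus, with no overlap. Kcna5 was also highest in nucleus accumbens, at 7.63 ± 0.27 (SD, n = 12).

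Kcna6, another delayed-rectifier subunit, was instead highest in septum on both probe sets. On Kcna6 a septum arrays ran 7.66, 8.04 and 8.20, and prefrontal cortex arrays 5.00, 6.47 and 7.48 with 4 of 9 at the floor. Kcna6 a was -1.34 in prefrontal cortex (SE 0.20, adjusted p = 4.22e-08). Kcna1, the axonal Kv1 subunit, was lowest in amygdala. Kcna1 a was 7.11 ± 0.35 there (SD, n = 12) and -1.10 against the other 5 regions (SE 0.11, adjusted p = 2.46e-12).

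The Kv4 genes, which carry the dendritic A-type current, were split by region. Kcnd2 was highest in nucleus accumbens and lowest in septum on both probe sets. Kcnd2 a arrays ran 8.78, 9.09 and 9.40 in nucleus accumbens and 7.31, 7.63 and 7.91 in septum, with no overlap. Kcnd3 was highest in ventral tegmental area on all 3 tested probe sets. Kcnd3 c arrays lay between 9.54 and 9.82 there, and its mean differed from that of amygdala, the next region.

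Of the EAG, ERG and ELK genes, Kcnh3 (an ELK channel active near rest) was highest in prefrontal cortex and amygdala. Kcnh3 b arrays ran 11.06, 11.55 and 11.72 in prefrontal cortex, 10.40, 11.20 and 11.41 in amygdala and 9.12, 9.59 and 9.86 in lateral hypothalamus, which did not differ from ventral tegmental area. Prefrontal cortex and lateral hypothalamus did not overlap. Kcnh3 b was higher by 1.38 in prefrontal cortex (SE 0.08, adjusted p = 1.00e-20), and Kcnh3 a was higher by 1.12 in amygdala (SE 0.22, adjusted p = 1.77e-05). Kcnh1 (EAG) was highest in prefrontal cortex and nucleus accumbens, at 8.87 ± 0.30 (SD, n = 9) and 8.83 ± 0.11 (SD, n = 12), and lowest in ventral tegmental area at 6.87 ± 0.28 (SD, n = 9). Kcnh4, a further ELK gene, was 7.98 ± 0.13 in nucleus accumbens (SD, n = 12), above the other 5 regions. Kcnh7, an ERG gene, stood highest in amygdala at 6.72 ± 0.24 (SD, n = 12), the only region where it passed the signal filter. Kcnh6, another ERG gene, was lowest in nucleus accumbens at 5.75 ± 0.46 (SD, n = 12). Kcnh2, the ERG gene best known from the heart, had regional means of 8.62 to 8.99 on Kcnh2 a with no neighbours that differed. On Kcnh2 b they ran from 8.77 in lateral hypothalamus to 7.34 in prefrontal cortex, which differed from amygdala, the next region. Kcnh2 b was -1.02 in prefrontal cortex against the other 5 regions (SE 0.15, adjusted p = 9.91e-08), where its arrays spread from 5.89 to 8.08.

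Kcnq3, a subunit of the channel that muscarinic receptors close, was higher in nucleus accumbens, amygdala and prefrontal cortex than in the other 3 regions. Its means were 8.58, 8.43 and 8.17 against 7.76, 7.64 and 7.62. Kcnk1, a tandem-pore leak channel, was highest in prefrontal cortex, where its arrays ran 9.65, 10.24 and 10.57 against 8.60, 8.90 and 9.24 in nucleus accumbens, with no overlap.

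The probe sets of 1 gene gave like regional profiles in most cases. For 10 genes with several tested probe sets there were 12 pairs, and 8 had r over 0.8 across the 6 regional means, which share arrays. The lowest was Kcnj11 at 0.38, whose means differed little between regions.

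In lateral hypothalamus, cocaine access was compared within the region's 12 arrays by limma, with p adjusted over all probe sets tested there. Between long and no access, 6 of 27 member probe sets (5 of 20 genes) passed, 4 higher and 2 lower, or 22.2% beside 29.7% of all probe sets (13.4% higher and 16.3% lower). Short against no access gave 5 (2 higher, 3 lower), or 18.5% beside 22.4% (10.3% higher and 12.1% lower). Long against short access gave 4 (3 higher, 1 lower), or 14.8% beside 8.91% (5.01% higher and 3.9% lower). The median member differed by 0.12, -0.02 and 0.14, and the median probe set by -0.03, -0.07 and 0.02. The first and second comparisons share the no access arrays. In both comparisons with no access the members' share was below that of all probe sets.

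The 4 no access arrays of this region stood apart in their controls. Their 6 antisense control probe sets averaged 8.13 ± 0.21 (SD, n = 4), against 6.84 ± 0.17 with short and 6.75 ± 0.15 with long access (SD, n = 4 each). Their 9 spike-in controls averaged 12.05 ± 0.14, against 11.61 ± 0.27 and 11.39 ± 0.12 (SD, n = 4 each). Each of these 4 differences had a two-sided exact permutation p of 0.0286, the smallest possible with 4 against 4, and 0.257 after adjustment over all such tests. The astrocyte sum was 30016 to 33845 without access, 26220 to 29380 with short and 26521 to 30094 with long access. The oligodendrocyte sum was 37846 to 44718, 36458 to 42170 and 32287 to 37947. Slc2a1, a vessel and glial glucose transporter, was 3328 to 4017, 2242 to 2952 and 2016 to 2784. Summed Cck and Camk2a was 354 to 497, 185 to 330 and 112 to 198. The part of these differences in the channel results was not tested, but with the spike-in signal as a covariate 0, 1 and 2 of the 6, 5 and 4 calls were made. Those kept were Kcnj16 with short against no access, and Kcna6 b and Kcnk1 between long and short access. The spike-in signal was higher on the no access arrays, so in comparisons with no access the covariate and access cannot be fully told apart. One fit of all 63 arrays, which pools the spread of all regions, kept only Kcnk1 between long and short access. It also called Kcnt1, too dim for the region's own test, higher by 0.80 with short against no access (SE 0.26, adjusted p = 0.0436).

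**Figure D3:**
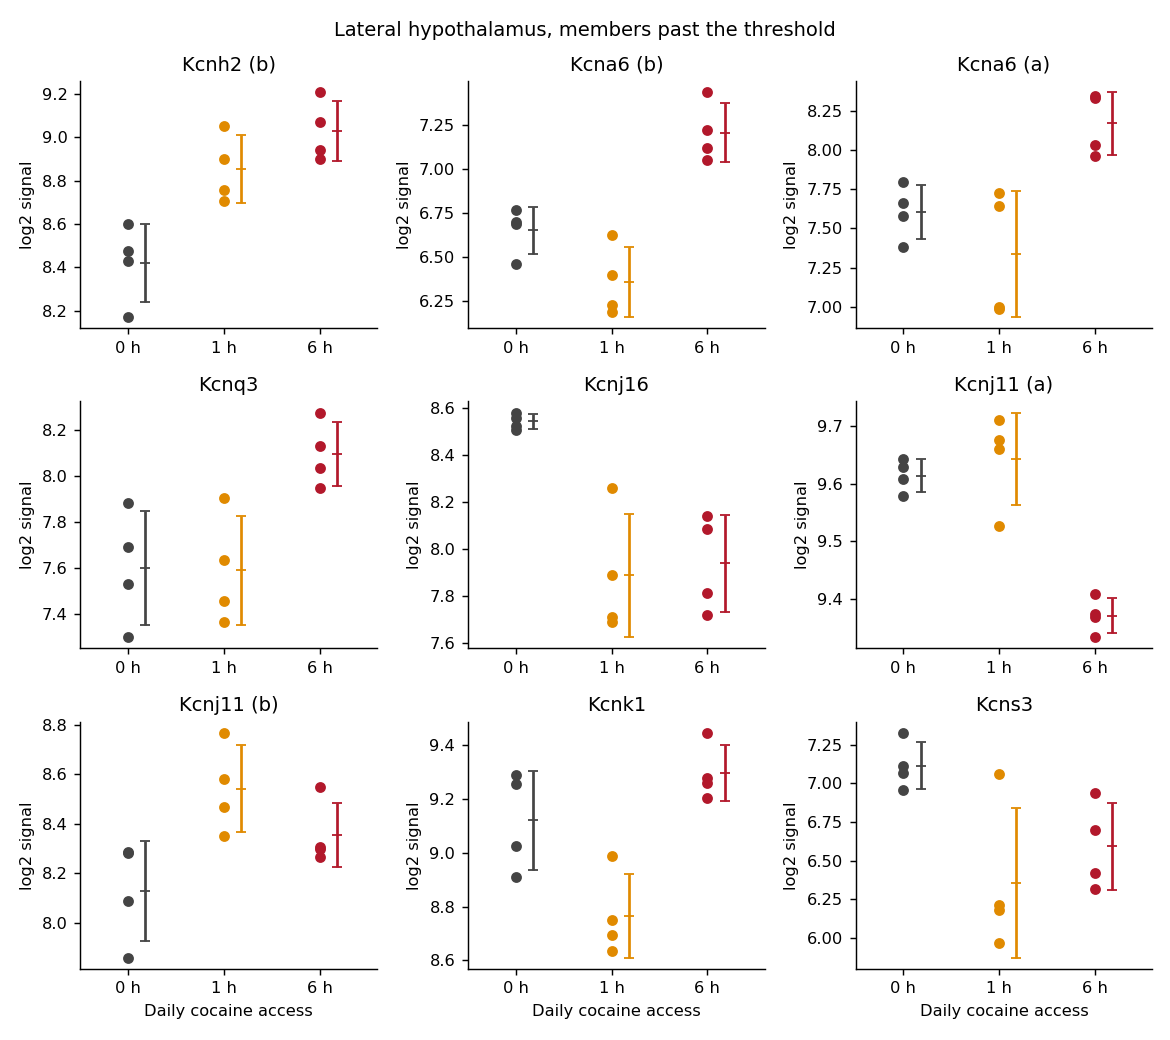
Log2 signal in lateral hypothalamus on each of 12 arrays for the member probe sets that passed in any access comparison there, 1 panel each with its own y range. Bars are the group mean and SD, n = 4. Kcnj16 is highest on all 4 no access arrays, and both probe sets of Kcna6 are highest on the 4 long access arrays.

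Kcnj16, the Kcnj10 partner, was at 8.52, 8.56, 8.51 and 8.58 on the no access arrays of lateral hypothalamus, 8.26, 7.89, 7.69 and 7.71 with short access and 8.14, 7.81, 7.72 and 8.09 with long access. All no access arrays lay above all cocaine arrays, and the cocaine groups overlapped. Kcnj16 fell by 0.65 with short access (SE 0.14, adjusted p = 0.00521) and by 0.60 with long access (SE 0.14, adjusted p = 0.00595). With the spike-in covariate the first was kept, at -0.76 (adjusted p = 0.0448), and the second was -0.77 without passing (adjusted p = 0.121). In 1 fit of all arrays neither passed (adjusted p = 0.118 and 0.123). Both were kept without any 1 of the 12 arrays. The astrocyte sum given above was likewise higher without than with short access, with no overlap, and overlapped with long access. In nucleus accumbens, where it was under the threshold for a test, Kcnj16 was higher with access by 0.62 (short) and 0.53 (long) in a fit with no filter, without passing (adjusted p = 0.269 and 0.243). Kcnj10 itself, which is not a member, was higher by 0.91 and 0.52 on its probe sets in lateral hypothalamus with long access (adjusted p = 0.00328 and 0.0153), opposite to Kcnj16. With short access Kcnj10 differed by -0.41 and -0.32, the direction of Kcnj16, without passing (adjusted p = 0.146 and 0.128).

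Kcnh2 b read 8.60, 8.17, 8.48 and 8.43 without access, 8.90, 8.71, 9.05 and 8.76 with short access and 8.90, 8.94, 9.07 and 9.21 with long access. Every cocaine array lay above every no access array. Kcnh2 b rose by 0.61 with long access (SE 0.12, adjusted p = 0.00161) and by 0.44 with short access (SE 0.12, adjusted p = 0.0195). The first was kept without any 1 array, and the second was lost without 2 of 12, with an adjusted p of up to 0.0587 without short access array 3. With the spike-in covariate Kcnh2 b differed by 0.37 and 0.28 (adjusted p = 0.391 and 0.349), and in the fit of all arrays neither difference passed (adjusted p = 0.181 and 0.423). Kcnh2 a differed by 0.24 with long access and did not pass (adjusted p = 0.172).

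Kcna6 b read 6.68, 6.70, 6.77 and 6.46 without access, 6.62, 6.22, 6.19 and 6.40 with short access and 7.44, 7.12, 7.22 and 7.05 with long access. Kcna6 a read 7.66, 7.58, 7.38 and 7.80, then 7.73, 6.99, 7.64 and 6.996, then 8.03, 8.33, 8.35 and 7.96 in the same order of groups. On both probe sets the long access arrays were above all others. Against no access, Kcna6 rose by 0.56 on both (b: SE 0.17, adjusted p = 0.0268; a: SE 0.19, adjusted p = 0.0363). Against short access, which does not involve the no access arrays, it rose by 0.85 on b (SE 0.17, adjusted p = 0.00912) and 0.83 on a (SE 0.19, adjusted p = 0.0153). With 1 array left out, only Kcna6 b against short access was kept in all 12 fits. The highest adjusted p of Kcna6 were 0.0972 on a without no access array 3 and 0.0747 on b without long access array 1, against no access, and 0.0509 on a without short access array 2, against short access. With the spike-in covariate the differences against no access were -0.14 on Kcna6 a and 0.66 on Kcna6 b (adjusted p = 0.858 and 0.276). Against short access they were 0.59 on Kcna6 a and 0.88 on Kcna6 b (adjusted p = 0.0765 and 0.0234).

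Kcnq3 read 7.30, 7.53, 7.69 and 7.88 without access, 7.90, 7.37, 7.64 and 7.46 with short access and 8.27, 7.95, 8.13 and 8.03 with long access. The long access arrays were the highest 4. Kcnq3 rose by 0.49 with long against no access (SE 0.16, adjusted p = 0.0294), a call lost without 4 of the 12 arrays, with an adjusted p of up to 0.0863 without no access array 1. With the spike-in covariate the Kcnq3 difference was 0.10 (adjusted p = 0.905).

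Kcnk1, the leak channel, read 9.03, 8.91, 9.25 and 9.29 without access, 8.99, 8.75, 8.63 and 8.69 with short access and 9.45, 9.20, 9.26 and 9.28 with long access. Long and short access did not overlap. Kcnk1 fell by 0.35 with short against no access (SE 0.11, adjusted p = 0.0381) and was higher by 0.53 with long than with short access (SE 0.11, adjusted p = 0.0111), the latter also with the spike-in covariate (adjusted p = 0.0395) and in the fit of all arrays (adjusted p = 0.042). The difference from short access was kept without any 1 array, and that from no access was lost without 6 of 12, with an adjusted p of up to 0.107 without no access array 3.

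Kcns3, the silent subunit highest in ventral tegmental area, read 7.11, 7.07, 6.96 and 7.32 without access, 7.06, 5.97, 6.22 and 6.18 with short access and 6.70, 6.32, 6.94 and 6.42 with long access. Apart from 1 short access array at 7.06, the cocaine arrays were lower than the no access arrays. Kcns3 fell by 0.76 with short access (SE 0.24, adjusted p = 0.0345), and the difference with long access, -0.52, did not pass (adjusted p = 0.119). The short access call was lost without 5 arrays, with an adjusted p of up to 0.105 without short access array 2. With the spike-in covariate the Kcns3 difference with short access was -1.13 and did not pass (adjusted p = 0.0592).

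The probe sets of Kcnj11 did not move together. Kcnj11 a read 9.64, 9.61, 9.63 and 9.58 without access, 9.71, 9.67, 9.66 and 9.53 with short access and 9.37, 9.41, 9.33 and 9.37 with long access, so that long access lay below all other arrays. Kcnj11 a fell by 0.24 against no access (SE 0.08, adjusted p = 0.0286) and by 0.27 against short access (SE 0.08, adjusted p = 0.0433). Kcnj11 b rose by 0.41 with short against no access (SE 0.13, adjusted p = 0.0359) and differed by 0.23 with long access (adjusted p = 0.224). With the spike-in covariate the Kcnj11 b difference with short access was 0.16 (adjusted p = 0.64). The Kcnj11 a differences were then -0.29 against no access and -0.29 against short access (adjusted p = 0.271 and 0.0804). The Kcnj11 calls were lost without 6, 10 and 5 of the 12 arrays, with adjusted p of up to 0.0628 without no access array 1, 0.113 without short access array 2 and 0.11 without short access array 1.

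Kcnk3 was singled out after its values were seen, because the filter on the regional mean left it out. It encodes an acid-sensitive tandem-pore leak channel (TASK-1). In lateral hypothalamus all 4 no access arrays were at the floor, the short access arrays were at 7.12, 7.68, 5.93 and 7.29, and the long access arrays were at 7.31, 7.62, 7.53 and 7.59. The deposited intensities of Kcnk3 there, before scaling, were 11.3 to 13.2 without access, 28.7 to 95.6 with short access and 74.9 to 92.0 with long access. Every cocaine array lay above every no access array. The group means over the floor gave at least 5.70-fold higher Kcnk3 with long access and at least 4.02-fold with short access. In the fit with no filter the difference was 2.51 for long access and 2.01 for short access. No p-value is given, since Kcnk3 was picked after its values were seen. The no access arrays, all at the floor, also have no spread.

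Outside lateral hypothalamus Kcnk3 was at the floor on 47 of 51 arrays. The exceptions were 4 of 9 prefrontal cortex arrays, at 6.91 and 5.21 without access, 5.62 after short and 5.70 after long access. The long against no access difference in lateral hypothalamus exceeded the mean of that in the other 5 regions by 2.61, which is given without a test because arrays at the floor have no spread. With the spike-in covariate, a setting chosen after seeing the data, Kcnk3 differed by 3.47 and 2.64 (adjusted p = 0.00822 and 0.00532). With values as deposited, where the same floor stood higher relative to the signal, the differences were 1.42 and 0.95. The second of these no longer passed (adjusted p = 0.0059 and 0.0507). A second probe set of Kcnk3, of the kind that can cross-hybridise, was at the floor on all 63 arrays, with a deposited maximum of 11.1. The Kcnk3 difference thus rests on a single probe set.

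**Figure D4:**
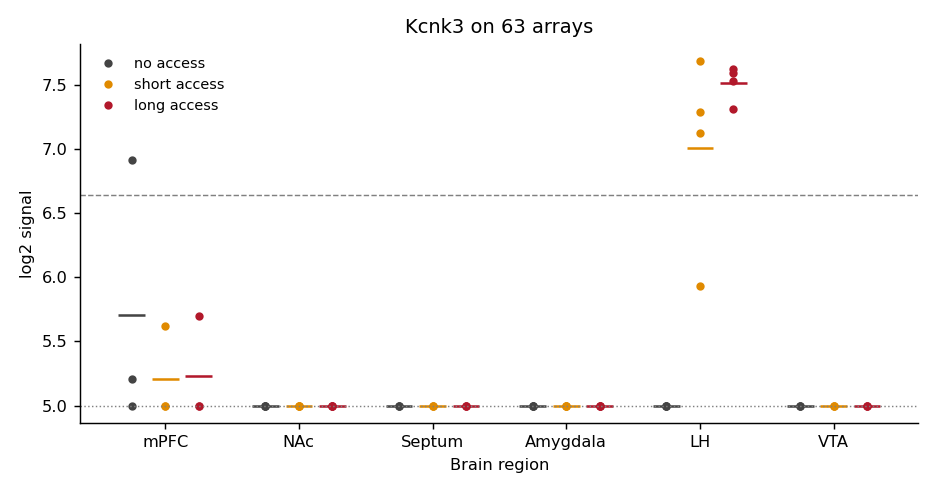
Log2 signal of the brighter Kcnk3 probe set on each of 63 arrays, by region and access group. The dotted line is the floor (log2 of 32) and the dashed line the signal of 100 needed for a test. In lateral hypothalamus the 4 no access arrays are at the floor and the 8 cocaine arrays are above it, the 4 long access arrays between 7.31 and 7.62.

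In the other 5 regions limma called 0 member probe sets in 15 access comparisons. In nucleus accumbens 6, 7 and 2 of 32 had an unadjusted p under 0.05 (long against no, short against no and long against short access, an order kept below), where 0% of all probe sets were called. In amygdala they were 3, 2 and 1 of 32 beside 0.137%, 0% and 0% called, and in septum 4, 2 and 5 of 28 beside 2.31%, 1.9% and 2.04%. In ventral tegmental area they were 1, 1 and 1 of 28 beside 2.91%, 0.831% and 2.63%, and in medial prefrontal cortex 0 in each beside 0%. These percentages are shares called at an adjusted p under 0.05, a stricter rule than that of the counts. The share of all probe sets with an unadjusted p under 0.05 is not given. These counts and those at unadjusted p below thus have no background to be read against.

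The smallest p in nucleus accumbens belonged to Kcnf1. It read 8.66, 8.50, 8.40 and 8.66 without access, 7.99, 8.16, 7.98 and 7.98 with short access and 8.03, 8.39, 8.04 and 8.09 with long access. All cocaine arrays lay below all no access arrays, the closest pair being 8.39 and 8.40. Kcnf1 differed by -0.52 with short access (adjusted p = 0.118) and by -0.42 with long access (adjusted p = 0.132). Kcnd3 c differed by 0.47 with long access (adjusted p = 0.132), and Kcnk1 by -0.35 with short access (adjusted p = 0.296). Between long and short access Kcna1 a differed by 0.66 and Kcnn1 by -0.57 (adjusted p = 0.441 for each).

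In amygdala Kcnh3 b differed by -0.47 and Kcnh2 b by -0.66 with long against no access (adjusted p = 0.726 for each), and Kcnd3 c by -0.54 and Kcnd2 a by -0.58 with short access (adjusted p = 0.943 for each). In septum Kcnd2 a differed by -0.46 (adjusted p = 0.17) and Kcnd3 c by -0.36 (adjusted p = 0.195) with long access, Kcnh6 by 0.51 (adjusted p = 0.296) and Kcnd2 b by 0.46 (adjusted p = 0.32) with short access. Between long and short access in septum Kcnd2 b differed by -0.63 (adjusted p = 0.148). In ventral tegmental area Kcnj1 differed by -0.69 with long access (adjusted p = 0.33), Kcna6 a by -0.58 with short access (adjusted p = 0.324) and Kcnh2 b by 1.06 between long and short access (adjusted p = 0.227). In medial prefrontal cortex the largest of those with the smallest p was Kcnh2 b at -0.78 with long access (adjusted p = 0.996). None of these passed.

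Averaged over the 6 regions, with every region given equal weight, 2 of 41 member probe sets passed between long and no access, both lower, where 0.466% of all probe sets were called lower and 1.17% in either direction. The median member differed by -2.11e-04 on the log2 scale and the median probe set by 0.01, and 5 members had an unadjusted p under 0.05. Kcnd2 a fell by 0.32 (SE 0.08, adjusted p = 0.0351) and Kcnj4 b fell by 0.50 (SE 0.13, adjusted p = 0.039). Their second probe sets did not pass: Kcnd2 b differed by -0.15 and Kcnj4 a by -0.17 (adjusted p = 0.37 and 0.69). With 1 of the 63 arrays left out, Kcnd2 a lost its call in 5 fits and Kcnj4 b in 20, with adjusted p of up to 0.06 without ventral tegmental area long access array 3 and 0.0737 without septum long access array 2. With arrays of the same access group and replicate number treated as a block, neither passed. The fit takes all 63 arrays as independent. Arrays of different regions may come from the same rats, so these p-values may be too small. Short against no access gave 0 calls by limma beside 0.816%, with 3 unadjusted p under 0.05. The smallest was that of Kcnd2 a, at -0.29 (adjusted p = 0.0508). Long against short access gave 0 beside 0.233%, with 6 unadjusted p under 0.05.

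Kcnd2 a was lower with long access in the mean of each region. In nucleus accumbens it read 9.40, 9.26, 9.27 and 9.26 without and 9.11, 9.10, 8.94 and 8.78 with long access. In amygdala it read 8.89, 8.33, 8.23 and 8.31 without and 7.90, 7.85, 7.91 and 7.93 with long access. In septum it read 7.71, 7.84 and 7.88 without and 7.36, 7.38 and 7.31 with long access. The groups of these 3 regions did not overlap. Kcnd2 a differences were -0.31, -0.54 and -0.46 there and -0.22, -0.20 and -0.18 in lateral hypothalamus, ventral tegmental area and prefrontal cortex, where the groups overlapped, and none passed within a region.

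Kcnj4 b differed most in ventral tegmental area, where it was too dim for a test in the region's own fit. There it read 6.64, 6.25 and 6.16 without access and 5.61, 5.07 and 5.04 with long access, with no overlap, and -1.11 with no filter (adjusted p = 0.0746). The ventral tegmental area arrays also differed in their spike-in controls, at 12.32 ± 0.11 with long and 11.55 ± 0.14 without access (SD, n = 3 each, two-sided exact permutation p = 0.1, the smallest possible with 3 against 3), and the part of this in the Kcnj4 b difference was not tested. Kcnj4 b was -0.80 in septum, where 1 long access array, at 7.22, lay inside the no access range of 6.92 to 7.31. It was -0.36 in nucleus accumbens, -0.23 in amygdala and -0.12 in prefrontal cortex, with overlapping groups. In lateral hypothalamus it was 6.06 without and 5.67 with long access, with arrays at the floor in both groups.

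**Figure D5:**
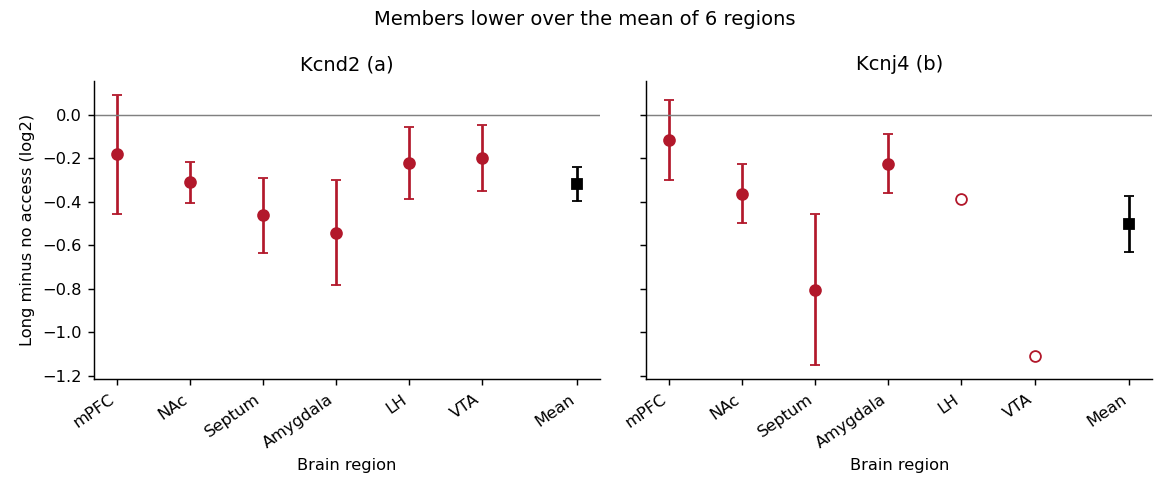
Difference between long and no access (log2, with SE bars) of Kcnd2 a and Kcnj4 b in each region (circles) and in the mean of 6 regions (squares). Open circles mark regions where the probe set was too dim for its own test. Kcnd2 a and Kcnj4 b lie below 0 in every region, and for the mean of the 6 regions at -0.32 and -0.50.

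Whether the access effect of a region differed from that of the other 5 was tested directly, and 0 of 41 member probe sets passed by limma in each of the 6 regions. In lateral hypothalamus, nucleus accumbens, amygdala, septum, ventral tegmental area and prefrontal cortex, 3, 3, 4, 1, 0 and 6 had an unadjusted p under 0.05. For lateral hypothalamus the same test called 12.8% of all probe sets, and for the other 5 regions 0%. The smallest p there belonged to Kcnj16, at -0.73 (SE 0.30, unadjusted p = 0.0174, adjusted p = 0.0969), and Kcnh2 b, at 0.76 (SE 0.34, unadjusted p = 0.029, adjusted p = 0.138). With no filter, Kcnk3 in lateral hypothalamus and the silent subunit Kcns1 in medial prefrontal cortex also passed, but arrays at the floor have no spread, so this test is not valid for them. Kcns1 was at the floor on every array of the other 5 regions, and in prefrontal cortex it was 5.42 ± 0.42 without and 5.93 ± 0.35 with long access (SD, n = 3 each), with overlapping arrays. The lateral hypothalamus access results of the tested members are thus not shown to differ from those in the other regions.

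Other channel genes in lateral hypothalamus were read between long and no access, where 13.4% of all probe sets were called higher and 16.3% lower. The no access arrays are those that stood apart in their controls. The 4 potassium channel genes outside the set had 3 of 7 probe sets higher and 1 lower. Kcnj10 was higher on both its probe sets, as given above, Kcnc4 was higher by 1.26 and 1 probe set of Kcnc2 was -0.61. The other Kcnc2 probe sets, at -0.45 and -0.29, did not pass (limma adjusted p = 0.0899 and 0.199). Of 14 sodium and calcium channel genes with 17 probe sets, 2 were higher and 1 lower, namely Scn2a at 0.57, 1 probe set of Cacna1b at 0.51 and Scn1a at -0.62. The other Cacna1b probe set, at 0.03, did not pass (limma adjusted p = 0.91). The 3 channel partner and Hcn probe sets gave 0 calls by limma, with 1 unadjusted p under 0.05, that of Cntn2 at 0.25.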

How the data were processed

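RNA of 6 rat brain regions was measured on 63 Rat Neurobiology U34 arrays (Affymetrix). The values were deposited as linear signal intensities. Per the submitters' processing notes they come from MAS5, whose version and scaling target are not given in the sources used here. The trimmed mean of the deposited intensities was 250.8 to 251.3 on every array, so the arrays had been scaled to a common level. Leaving out control probe sets, the 2% trimmed mean of the other 1263 was brought to 500 on each array, and signals were floored at 32 and converted to log2. A probe set was tested in a region where its mean reached log2 of 100, and entered the joint fits if it did so in at least 1. Background subtraction in MAS5 makes low signals imprecise, the floor understates changes of dim genes, and the number of arrays limits the precision.

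Symbols came from GEO's platform annotation (1137 probe sets with 1 symbol, 8 with several, 118 with none). Promoters came from RefSeq (GRCr8), matched through gene identifiers.

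Access groups were compared in limma 3.58.1 (R 4.3.3) with lmFit and eBayes with an intensity trend, in 1 fit per region, and regions, the mean of 6 regions and the differences between regions in 1 fit of 18 groups. P-values were adjusted by Benjamini-Hochberg over all probe sets of a contrast, with a threshold of 0.05, and the region contrasts also needed 2-fold. Array controls were compared by two-sided exact permutation tests. The scripts were tested on simulated data. The text names each member probe set past the threshold (up to 12 by smallest p in a lateral hypothalamus access contrast, up to 4 in others), or else the 2 of smallest p, and in region contrasts up to 3 higher and 2 lower by size. Other regional values describe each member gene by its measured probe sets. Kcnk3 was named outside this rule. The members and lists were chosen with earlier results of these data known. Alternatives changed the scaling, floor, filter, normalization, trend, adjustment, arrays, array weights, probe sets and fold, and added a spike-in covariate or a replicate block. Settings for Kcnk3 beyond the absence of a filter were chosen after seeing the data.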

Additional observations from a re-analysis of the deposited data

Results flagged for a closer look

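In 48 groups of 4 arrays that bear on members named in access comparisons, the array farthest out was set against the spread of its group, and 2 stood apart by Dixon's 95% criterion, which chance meets in about 1 group in 20. Kcnf1 in nucleus accumbens with short access was 8.16 on array 2 and 7.98 to 7.99 on the other 3, a gap of 0.924 of the range, though the whole group lay within 0.2 on the log2 scale. Kcnd2 a in amygdala without access was 8.89 on array 1 and 8.23 to 8.33 on the other 3, a gap of 0.844 of the range. That array belongs to the control group of the Kcnd2 a result over 6 regions.

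The access effect on Kcnk3 differed between lateral hypothalamus and the mean of the other 5 regions by 2.61 on the log2 scale in the fit with no filter, which called 8.16% of all probe sets. The effect on Kcns1, a silent subunit above the floor only in prefrontal cortex, differed between that region and the other 5 by 0.51, in a contrast that called 0.0792%. Both were past the threshold of limma, but most or all arrays of the other regions were at the floor and have no spread, so their standard errors are too small and neither difference counts as tested. Kcns1 in prefrontal cortex was 5.42 ± 0.42 without access and 5.93 ± 0.35 with long access (SD, n = 3 each).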

How the results depend on the processing

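Member calls in lateral hypothalamus for long against no access (6) became 0 in 1 fit of all arrays and with the spike-in covariate, and 2 with adjustment over all 18 contrasts or with a 1.5-fold minimum. Short against no access (5) became 3 with quantile normalization or without cross-hybridising probe sets, 1 in the fit of all arrays (Kcnt1, not among the 5), 1 over 18 contrasts and with the spike-in covariate, and 2 at 1.5-fold. Long against short access (4) became 1 in the fit of all arrays, and 2 at 1.5-fold and with the spike-in covariate. With 1 array left out they ranged from 2 to 6 (fewest without no access array 1), 1 to 5 (without short access array 3) and 2 to 4 (without short access array 2). In the other 5 regions 0 calls became 1 with no filter, with array weights and over 18 contrasts, and 0 to 1 with 1 array left out (1 without septum long access array 1). Over the mean of 6 regions 2 calls became 5 with array weights, 1 without cross-hybridising probe sets and 0 with a replicate block, and 0 to 3 with 1 array left out (0 without septum long access array 3, ventral tegmental area long access array 3 or prefrontal cortex no access array 2). The 40 calls of a region against the others became 14 at 3-fold and 36 to 41 with 1 array left out. The 385 calls over 15 pairs of regions became 256 as deposited, 247 without cross-hybridising probe sets, 247 on no access arrays only, and 374 to 388 with 1 left out. Differences of the access effect between regions (0) became 2 with no filter (Kcnk3 and Kcns1, where arrays at the floor make that test invalid), 7 with array weights, and 0 to 1 with 1 left out (1 without prefrontal cortex no access array 3). Values as deposited had a trimmed mean of 250.8 to 251.3 on every array, against 500 after scaling. The floor stayed at 32 and the filter at 100, so both stood higher relative to the signal. That setting thus made the floor and filter stricter and hardly changed the arrays relative to each other. The cause of the other shifts was not tested, apart from fewer probe sets or arrays and a higher fold. Turned in sign were Kcnj4 b in ventral tegmental area against the other 5 regions (access effect, not called), 0.0236 as deposited, and Kcna6 a in lateral hypothalamus, -0.14 with the spike-in covariate. Kcnk3 with short access was 0.95 as deposited and 2.01 after scaling, with no filter. Over the single members named, called differences held their side of the threshold 352 times over the other settings, weakened 35 times and turned once. These counts pool region contrasts, many of very small p, with the access calls. They do not describe the access calls alone. Of those in lateral hypothalamus, the fit of all arrays kept only Kcnk1 between long and short access. The labels do not say that replicate numbers pair the arrays. Same-numbered arrays of 1 region had correlations of -0.13 to 0.73, over 0.1 in 27 of 63 pairs. Those of 1 access group in different regions had -0.16 to 0.47, over 0.1 in 22 of 144. No values of differently numbered arrays are given beside them, so a pairing by number was not tested. The block gave 7, 6 and 4 calls in lateral hypothalamus, 40 for regions and 387 for pairs. Signals near the floor, as for Kcnk3, Kcnj4 in lateral hypothalamus and Kcnj16 in prefrontal cortex, give bounds only.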

Other observations

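With no filter on dim probe sets, 3 member probe sets besides Kcnk3 passed in a comparison. Kcna3, a Kv1 channel best known from T cells, was higher by 0.97 with short against no access in lateral hypothalamus (limma adjusted p = 0.0271, beside 13.3% of all probe sets). Its mean there was 5.70, near the floor, and 36 of 63 arrays were at the floor. This probe set can cross-hybridise, and the no access arrays are those that stood apart in their controls. Kcnb2, a delayed rectifier, was -0.75 with long against short access in septum (adjusted p = 0.0412, beside 1.03%), where all 3 long access arrays were at the floor and add no spread to the test. The remaining one, Kcns1, is described with the results above, as a test that the floor makes invalid. In the amygdala the summed Oxt, Avp and Gal signal and Kcnj16 did not run together by array: the array with the highest sum, 10497, had Kcnj16 at 6.91, and the array with the highest Kcnj16, 7.91, had a sum of 673.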
